A study of Mus musculus with 5 samples.

Results

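Among the lung ILC2s sorted from naïve mice, 116 barcodes carried UMIs of several genes of endothelial cells, the cells that line blood vessels. They were chosen by these measured UMIs (unique molecular identifiers, each of which stands for 1 captured transcript): a member had UMIs of at least 3 of 10 endothelial genes, here called the rule genes (Ramp2, Cldn5, Hpgd, Ptprb, Tm4sf1, Cd36, Cavin2, Egfl7, Cdh5 and Pecam1). The members were 116 of 6389 kept naïve cells, or 1.82% (exact 95% interval 1.50 to 2.17%), and 16530 cells were kept in the 5 libraries of the series. Kept cells had at least 200 genes and under 5% mitochondrial UMIs. The 4819 naïve cells with UMIs of none of the 10 genes served as comparison cells. Since measured counts chose both groups, differences between them are a description and have no test, and with 1 naïve library there is no replicate check. All intervals are exact 95% intervals and cover counting error only.

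The study asked how group 2 innate lymphoid cells (ILC2s) of the lung change as a tumour grows. The mice were wild-type C57BL/6 females aged 4 to 8 weeks, with cells of 5 animals pooled in each library of the 10x Genomics 3' platform. The naïve library came from freshly sorted cells of mice without a tumour. The ta-non-activated libraries were made from freshly sorted cells of mice with TC1 tumours, a mouse lung cancer model, at weeks 2 and 3 after implantation. The ta-activated libraries came from tumour-bearing mice at the same weeks, and their cells were cultured for 7 days in TSLP, rmIL-33 and rhIL-2, each at 10 ng/mL. In all 5 libraries, digested lung was enriched for ILC2s and sorted as lineage-negative ST2+ CD127+ Thy1.2+ CD45+ cells. The gate therefore asked for CD45, a protein of blood cells that endothelium does not carry. The naïve members held 642743 UMIs, with a median of 5092.5 per barcode (503 to 21981), against a median of 4323 in the comparison cells. Kept cells held 32395387 UMIs in the naïve library and 9394957 to 61830293 in the other 4.

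Endothelial cells of the lung fall into several kinds. General capillary cells (marked by Gpihbp1, Plvap, Cxcl12 and Sema3c among others) act as the stem-like capillary cells and aerocytes (Car4, Ednrb, Apln) serve gas exchange, while arteries, veins and lymphatic vessels have genes of their own. ILC2s are tissue lymphocytes that need the transcription factors Gata3 and Rora and respond to IL-33 through ST2, which Il1rl1 encodes. They lie close to vessels and airways, and a lung digest holds both cell types and their debris.

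The sequence just before the start of 3 of the genes is shown for comparison: Cldn5 and Tm4sf1 are rule genes and hence present together by choice, and Calcrl is an endothelial gene outside the rule. ETS factors, such as Erg and Fli1, control many endothelial genes and bind sites with a GGAA core, and the letters AGGAAG or, on the other strand, CTTCCT are printed in capitals. The sequences are the 250 bases before the RefSeq start (GRCm38.p6), 5' to 3' on the gene's strand. Cldn5 encodes a tight junction protein (chr16:18776597-18776846, plus strand), Tm4sf1 a membrane tetraspanin-like protein (chr3:57301989-57302238, minus strand) and Calcrl the adrenomedullin receptor (chr2:84425267-84425516, minus strand).
Cldn5: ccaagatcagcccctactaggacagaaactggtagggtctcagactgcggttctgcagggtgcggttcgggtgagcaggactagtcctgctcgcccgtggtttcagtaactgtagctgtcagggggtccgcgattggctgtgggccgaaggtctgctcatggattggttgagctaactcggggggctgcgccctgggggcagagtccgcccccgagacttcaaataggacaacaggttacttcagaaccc
Tm4sf1: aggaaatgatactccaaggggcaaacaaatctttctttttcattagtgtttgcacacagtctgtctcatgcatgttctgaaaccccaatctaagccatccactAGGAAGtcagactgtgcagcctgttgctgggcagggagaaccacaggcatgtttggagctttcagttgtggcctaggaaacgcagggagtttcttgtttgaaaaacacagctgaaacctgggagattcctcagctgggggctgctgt
Calcrl: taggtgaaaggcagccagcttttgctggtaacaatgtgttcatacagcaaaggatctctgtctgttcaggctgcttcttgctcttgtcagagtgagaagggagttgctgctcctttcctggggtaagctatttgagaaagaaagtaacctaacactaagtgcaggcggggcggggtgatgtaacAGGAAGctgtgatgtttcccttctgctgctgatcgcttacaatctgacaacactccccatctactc
The letters were found in 4 of 8 promoters of the 6 rule genes with an entry, in 14 of 57 promoters (24.6%) of 45 other endothelial genes and in 9686 of 32851 promoters of all genes (29.5%). The match is a description of these letters in this window.

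Cells were spread over the whole range of the rule. There were 1355 naïve cells with 1 rule gene, 99 with 2, 26 with 3, 19 with 4, 15 with 5, 12 with 6, 18 with 7, 10 with 8, 3 with 9 and 13 with all 10. Just outside the threshold, the 99 cells with 2 rule genes had a median ILC2 share of 1.48% of UMIs (29 ILC2 genes summed), and just inside it the 26 cells with 3 rule genes had 1.27%. Pecam1 is also used by leukocytes, and 1112 of the 1355 cells with 1 rule gene (82.1%) had it as that gene. Of the naïve UMIs of Pecam1, 9.49% lay in members, against 88.4% of those of Ramp2 and 90.1% of those of Cldn5.

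**Figure D1:**
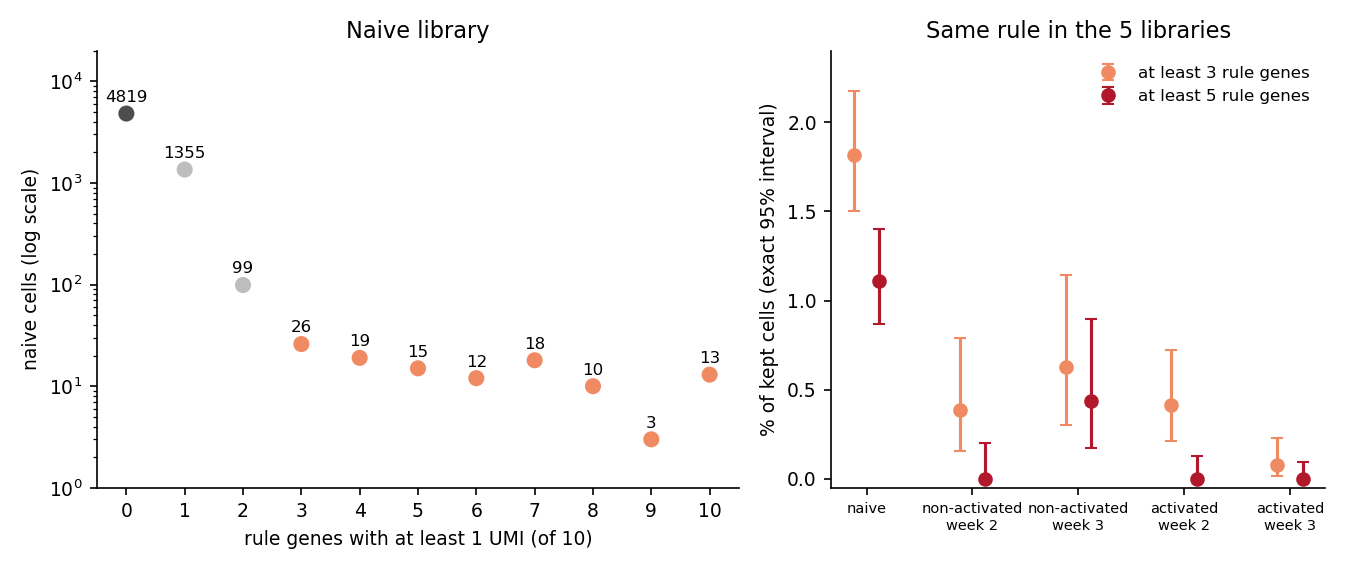
Left, naïve cells by the number of rule genes with a UMI, on a log scale (dark grey, comparison cells; light grey, 1 or 2 genes; orange, members). Right, percent of kept cells with at least 3 or at least 5 rule genes in each library, with exact 95% intervals. The naïve library lies highest, with 1.82% and 1.11%.

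The name endothelial-like fits only some of the members. A per-cell endothelial share was computed as the percent of a cell's UMIs in 66 endothelial genes outside the rule, all with a level in the comparison cells of under 1 UMI per 1000000 UMIs (counts per 1000000, CPM); this list was trimmed after its values were seen, so the score has no test. The share ran from 0 in 8 members to 4.37%, without a clear break. A limit of 1%, set after the values were seen, left 23 members above it, called endothelial-rich here, and 93 below it. Near the limit, 12 members lay between 0.5% and 1% and 7 between 1% and 1.5%, with 0.920% the nearest below and 1.11% the nearest above. The highest share was 0.168% among the comparison cells and 0.681% among the 1454 naïve cells with 1 or 2 rule genes. The 23 endothelial-rich members are thus a range of this score and not a cell type. They were also shallower, with a median of 2951 UMIs and 5 barcodes under 1000, against 5470 UMIs and 3 barcodes in the other 93. They held 1365 of the 2998 UMIs of the 66 genes in all kept naïve cells (45.5%), and the other 93 members held 952 (31.8%). The other 6273 naïve cells held what remained, and 93.9% of the comparison cells had no UMI of the 66 genes.

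The endothelial-rich members carried little ILC2 RNA, while in the other members the summed ILC2 share was close to that of the comparison cells. The 29 ILC2 genes made up a median of 0.143% of UMIs (0 to 0.663%) in the 23 endothelial-rich members. In the other 93 members the median was 1.27% (0 to 2.69%), and in the comparison cells it was 1.33%, with a 10th percentile of 0.820% and a 90th of 2.18%. All 23 endothelial-rich members lay under that 10th percentile, and so did 13 of the other 93. Across the 116 members, the Spearman correlation of the endothelial with the ILC2 share was -0.59; the shares have a common total, so the value is only a description.

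**Figure D2:**
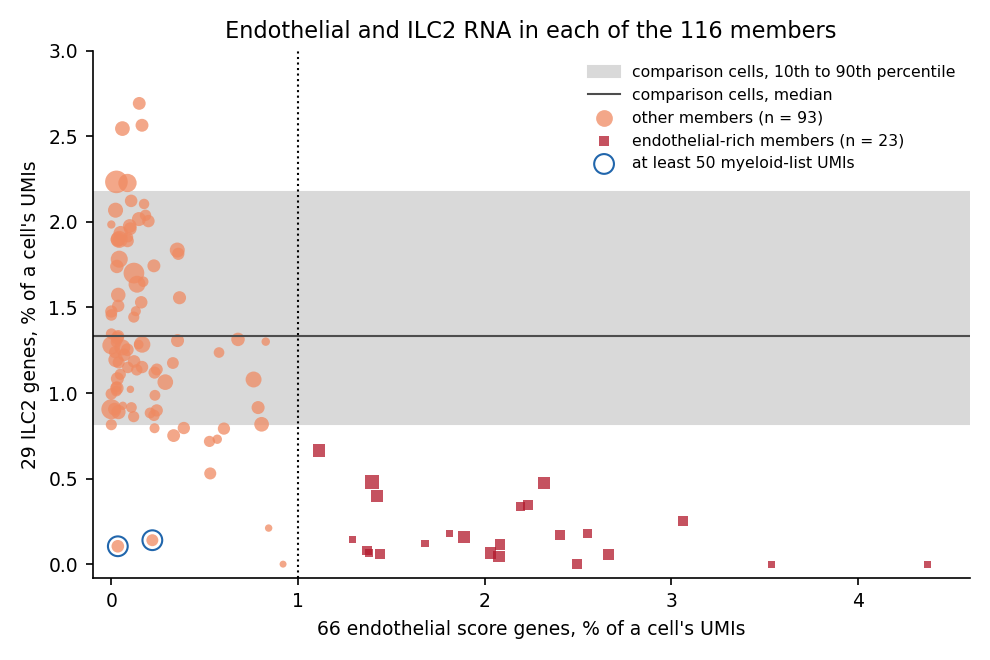
Each point is 1 of the 116 members, with the percent of its UMIs in 66 endothelial genes (x) and in 29 ILC2 genes (y); point area grows with the cell's UMIs. The dotted line is the limit of 1%, the grey band the 10th to 90th percentile of the comparison cells, and the 23 squares to the right of the line all lie under the band.

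Some members held both kinds of RNA at once (the single members described were chosen after their values were seen). Of the 12 members with an endothelial share between 0.5% and 1%, 5 had an ILC2 share inside the range of the comparison cells (at or above 0.820%) and 8 had a UMI of Ptprc, which encodes CD45. Member 27 in the order of endothelial share had 34 UMIs of Mgp and 7 of Vwf, both vessel genes, beside 4 of Gata3 and 3 of Ptprc among 8321 UMIs. Member 29 had 26 UMIs of Sema3c and 31 of Nckap5 beside 3 of Gata3 among 10102 UMIs. Whether such barcodes held 2 cells, a cell with a fragment of another, or free RNA was not tested.

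A further pair of members stood apart from both. They had 59 and 146 UMIs of 13 myeloid genes, against at most 14 in any other member and 0 in the endothelial-rich ones. Their ILC2 shares were 0.104% and 0.140%, and Lyz2, the lysozyme of macrophages and monocytes, had 88 UMIs in 4 of the 93 members. Cd36 is a scavenger receptor that macrophages use too. Without these 2 barcodes, an alternative chosen after seeing the data, 114 members remained and the median ILC2 gene ratio of members to comparison cells was 0.877, against 0.862 with them.

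Over all 116 members, most genes lay near their level in the comparison cells. Of 5965 genes with a mean of both levels of at least 20 CPM, 257 (4.31%) were at least 4-fold higher in the members and 6 (0.101%) at least 4-fold lower, and the median ratio was 0.993. In the endothelial-rich members 1181 of 6646 genes (17.8%) were at least 4-fold higher and 351 (5.28%) at least 4-fold lower. For the other 93 members the counts were 112 of 5774 (1.94%) and 8 (0.139%). Of the 1181 and 112 higher genes, 689 and 91 had at most 8 CPM in the comparison cells, so the filter fixed their call. The 2 groups held 69674 and 573069 UMIs and were not set to equal UMIs. Few UMIs make a call in the smaller group, so the counts of the 2 groups cannot be compared. Outside the rule, the 20 genes with the highest ratio in all members included the voltage-gated sodium channel family member Scn7a, the adhesion receptor Adgrl3, the growth factor Bmp6, the phosphodiesterase Pde3a, the prostaglandin transporter Slco2a1, the collagen IV chain Col4a1, Clec14a, the chemokine Cxcl12 and the transcription factor Foxf1. Scn7a stood at 1679 CPM in the endothelial-rich members, at 40.1 in the others and at 0.0439 in the comparison cells. The 6 genes at least 4-fold lower were Il23r, Cd3d, Cd3e, Ccl5, Klrk1 and Scgb1a1. The first 5 are genes of other lymphocytes or their receptors, and Scgb1a1 is the secretoglobin of airway club cells. Il23r, Cd3d and Cd3e had at most 8 CPM in the members, so they passed the filter only through the comparison cells, which fixed their call. Of 7 T cell genes read, 2 were lower, so no theme is drawn from these genes. Il23r had 1.56 CPM in the members and 47.7 in the comparison cells.

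The genes by which endothelium is known were present together in the endothelial-rich members. Of 35 pan-endothelial genes outside the rule, all had UMIs there, and 31 were at least 4-fold higher than in the comparison cells, 3 were not and 1 was under the filter, where 17.8% of all genes read were higher. In the other 93 members 14 of the 35 were higher, 8 were not and 13 were under the filter, where 1.94% of all genes read were higher. Such counts support nothing by themselves. The score holds 23 of the 35 genes, and the filter (a mean of both levels of at least 20 CPM) lets a gene of at most 8 CPM in the comparison cells pass only if it is at least 4-fold higher. For 24 of the 31 genes the filter thus fixed the call. The other 10 that passed had over 8 CPM in the comparison cells, and 7 of them were higher, beside 8.26% of all such genes. Among them was Calcrl, which is not in the score. Fli1 and Ctla2a, which the comparison cells also used, were among the 3 that were not: Ctla2a stood at 1148, 1333 and 1188 CPM in the endothelial-rich members, the other members and the comparison cells. After every cell was thinned to 2000 UMIs, the 16 endothelial-rich members of that depth had a median of 20.5 of the 35 genes, against 4 in 87 other members and 2 in 4615 comparison cells.

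**Figure D3:**
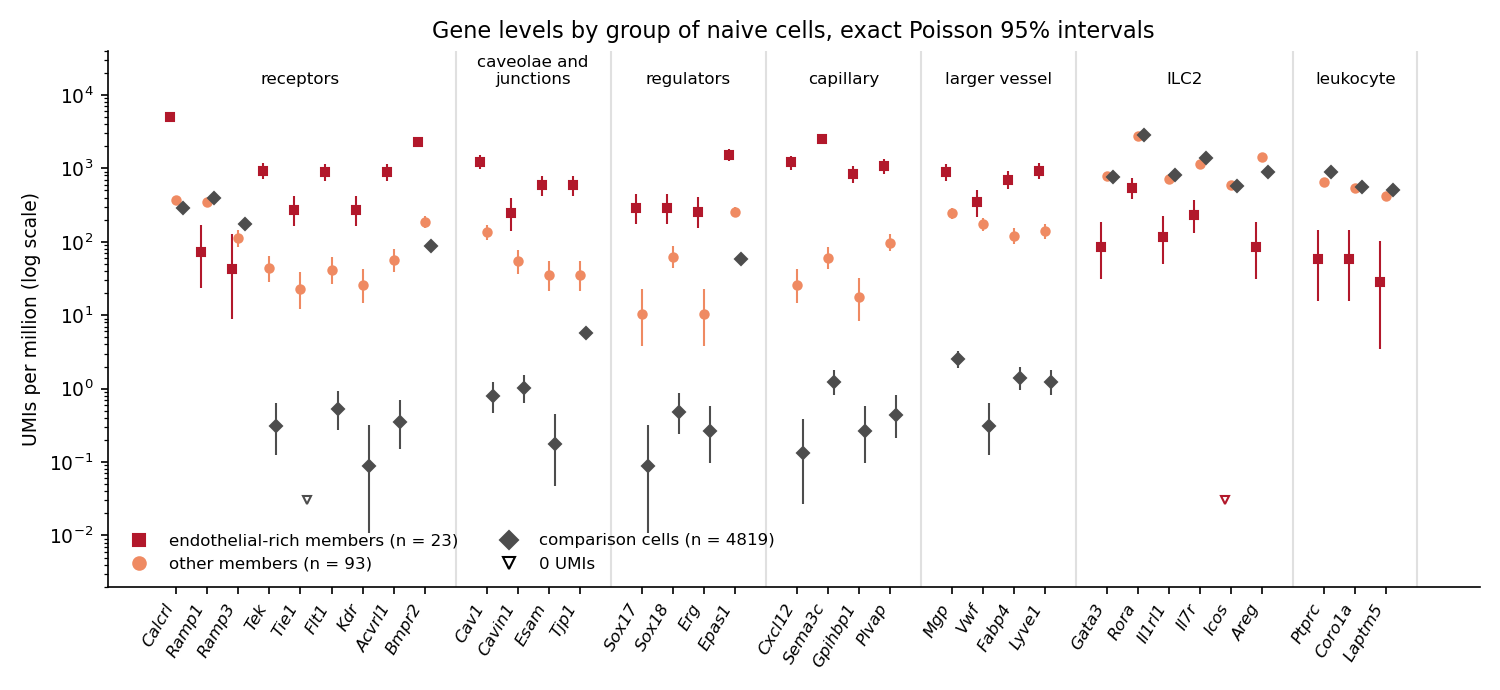
CPM (log scale, exact 95% intervals) of named genes in the endothelial-rich members (red squares), the other members (orange circles) and the comparison cells (grey diamonds); open triangles mark 0 UMIs. In the ILC2 and leukocyte panels the circles lie on or near the diamonds and the squares below them, while in the vessel panels the order runs square, circle, diamond, except for Ramp1 and Ramp3.

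Receptor genes for adrenomedullin and the neuropeptide CGRP went both ways. Of 6 such genes, 1 was at least 4-fold higher in the endothelial-rich members, 3 were at least 4-fold lower and 2 were under the filter. Of all genes read, 17.8% were higher and 5.28% lower. The median ratio of the list was 0.225. Calcrl and Ramp2 together form the adrenomedullin receptor, and Calcrl with Ramp1 the receptor of the neuropeptide CGRP. Calcrl had 5023 CPM (4511 to 5578) in the endothelial-rich members, 371.7 (323 to 425) in the other members and 286 (279 to 293) in the comparison cells, which use it as well. Ramp2 was in all 23 endothelial-rich members, at 2268 CPM (1928 to 2650), and in 49 of the other 93, at 178 (145 to 216). Ramp1 ran the other way, with 71.8 (23.3 to 167), 344 and 401 CPM, and Ramp3 too, with 43.1 (8.88 to 126), 112 and 176. Ramp2 is a rule gene, so its presence in members and its absence from the comparison cells were fixed by the choice; Calcrl, Ramp1 and Ramp3 are neither rule nor score genes.

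Many receptors for angiopoietins, VEGF and BMPs had a call that the filter fixed beforehand. Of 15 genes of that list, 10 were at least 4-fold higher in the endothelial-rich members, 1 was not and 4 were under the filter, beside 17.8% of all genes read. The filter fixed the call for 7 of the 10. Of the 4 genes with over 8 CPM in the comparison cells, 3 were higher, beside 8.26% of all such genes. In the other members 4 of the 15 were higher, beside 1.94% of all genes read, and the filter fixed all 4 calls. None of the 4 genes with over 8 CPM was higher there, beside 0.37% of such genes. Of the 15, 6 are score genes that helped to choose this group (Kdr, Flt1, Flt4, Tek, Tie1 and Acvrl1), so a higher level was favoured by the choice; Bmpr2 is not one. Tek, the angiopoietin receptor, had 919 CPM (707 to 1173), 43.6 (28.2 to 64.4) and 0.307 in the 3 groups. Flt1 and Kdr, the VEGF receptors, had 890 and 273 CPM in the endothelial-rich members, and 41.9 and 26.2 in the others. Acvrl1 and Bmpr2, receptors of BMP9 signalling, had 890 and 2282 CPM, and Bmpr2 was also read in the comparison cells at 88.3. The lymphatic VEGF receptor Flt4 had 1 UMI in the endothelial-rich members. Among transcription factors, the score gene Sox17 had 287 CPM (175 to 443) against 10.5 in the other members, and Sox18, also a score gene, had 287 (175 to 443) against 62.8. Epas1, the hypoxia factor HIF-2α, had 1536, 256.5 and 59.0 CPM in the 3 groups. Of 9 Notch pathway genes, 5 passed the filter only through the endothelial-rich members, which fixed their call, and the 3 with over 8 CPM in the comparison cells are too few for a count. Dll4, the vascular Notch ligand and the 1 score gene of the list, had 9 UMIs in 8 endothelial-rich members, and Notch4, the endothelial receptor, 4 UMIs in 4.

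Caveolae are membrane pits of capillary endothelium. Of their 6 genes, 5 had a call fixed by the filter, and 3 (Cav1, Cavin3 and Ehd2) are score genes, so no count of them is a result. The gene not fixed by the filter was Ehd4, with 1464, 197 and 31.7 CPM in the 3 groups. Cav1, their main coat protein, had 1220 CPM (974.5 to 1509), 134 (106 to 168) and 0.791. Of 11 junction genes, 8 were at least 4-fold higher in the endothelial-rich members (17.8% of all genes read), 5 of them fixed by the filter, 1 was not and 2 were under it. Of the 4 with over 8 CPM in the comparison cells, 3 were higher, beside 8.26% of all such genes. In the other members 1 of the 11 was higher (1.94% of all genes read), and the filter fixed that call. None of the 3 read there with over 8 CPM in the comparison cells was higher, beside 0.37% of all such genes. The scaffold Tjp1 had 588 CPM against 5.80, and Esam, the 1 score gene among them, 588 against 0.176. Ocln had 4 UMIs, and Cgn and Jam3 had 0 in the endothelial-rich members, where the 3 UMIs set for ratios stand for 43.1 CPM. Enzymes and carriers of the lung vessel surface were present as well. Ace, which makes angiotensin II, had 574 CPM (410 to 782) and 0.132 in the comparison cells, Slco2a1 746 and 0.0439, and the phospholipid transfer protein Pltp 1163 and 0.659. Nos3, the endothelial nitric oxide synthase, had 2 UMIs. Pparg, a lipid regulator that the comparison cells used at 335 CPM and the other members at 356, had 0 UMIs in the endothelial-rich members. Of 10 cytokines that act on ILC2s, Il33 had 3 UMIs in 1 endothelial-rich member and 4 in the others, Tslp, Il7 and Il25 had 0 in the endothelial-rich members, and Kitl, a score gene, had 244 CPM (142 to 391).

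At least 2 general capillary genes were found in 21 of the 23 endothelial-rich members, at least 2 aerocyte genes in 14 and at least 2 arterial genes in 14. No count of genes past 4-fold is given for these lists, since nearly all their genes had at most 8 CPM in the comparison cells and the filter fixed the call. The score holds 7 of the 11 general capillary genes (Gpihbp1, Plvap and Cxcl12 among them), 10 of the 12 aerocyte, 6 of the 12 arterial and 10 of the 11 venous genes, so their presence was partly fixed by the choice of the group. Sema3c, a guidance factor, had 2483 CPM (2127 to 2882) in the endothelial-rich members, Cxcl12 1206 (962 to 1493), Plvap, the diaphragm protein of fenestrae, 1076 (847 to 1349), and Gpihbp1, the anchor of lipoprotein lipase, 832 (632 to 1076). At least 2 of these 4 genes were found in 19 of the 23 endothelial-rich members, and all 4 in 7. Of the 12 aerocyte genes, Ednrb, Apln, Fibin, Tbx2, Chst1 and Rprml had 0 UMIs in the endothelial-rich members. Car4 had 10 UMIs in 6 members, and Nckap5 and Cyp4b1, with 2957 and 416 CPM, made up most of the list. By the list rule, 14 of 23 had at least 2 genes of both capillary lists, 2 had neither, and none had aerocyte genes alone. Nckap5 was 206 of the 269 UMIs of the aerocyte list. With the score genes of these lists alone (under 1 CPM in the comparison cells), 19 of 23 had at least 2 general capillary genes, 10 at least 2 aerocyte genes and 9 both. These genes helped to choose the 23, so the counts were favoured by the choice. At 2000 UMIs per cell, 14 of 16 endothelial-rich members had at least 2 general capillary genes, against 27 of 87 other members and 586 of 4615 comparison cells, in which Kit and Hilpda of the list are also used.

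**Figure D4:**
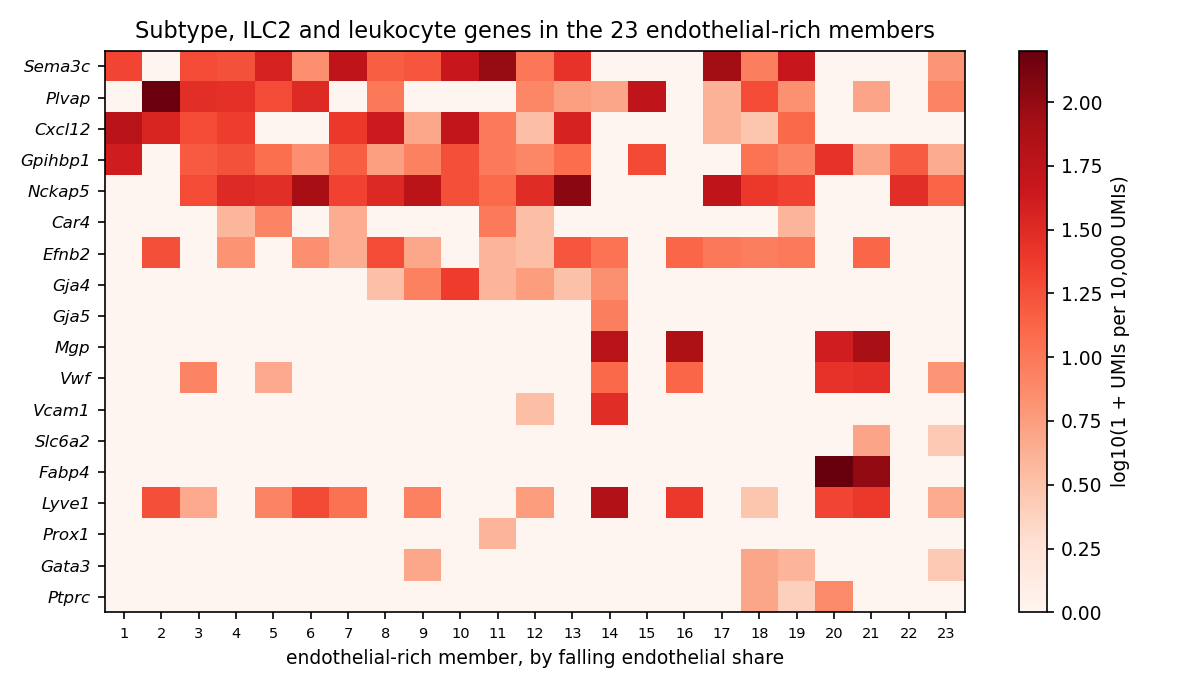
Colour shows log10(1 + UMIs per 10,000 UMIs) of subtype, ILC2 and leukocyte genes (rows) in each of the 23 endothelial-rich members (columns, by falling endothelial share). Sema3c, Plvap, Cxcl12 and Gpihbp1 fill most columns, while Mgp is confined to 14, 16, 20 and 21 and Fabp4 to 20 and 21.

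At least 2 venous genes were found in 7 of the 23 endothelial-rich members and at least 2 lymphatic genes in 1. With score genes alone the count for arterial genes was 6 of 23, and at 2000 UMIs per cell it was 7 of 16 with the whole list. A few members had mainly genes of larger vessels. Mgp, the matrix Gla protein of arteries and larger vessels, had UMIs in 4 of the 23, and Vwf, the clotting factor stored by larger vessels and veins, in 7. Member 14 had 31 UMIs of Mgp, 34 of Lyve1, 15 of Vcam1, 6 of Vwf and 4 of the arterial connexin Gja5 among 5075 UMIs. Of the capillary genes above it had none of Sema3c, Cxcl12 or Gpihbp1 but 2 UMIs of Plvap. By the list rule it also counts as having 2 general capillary genes. Members 20 and 21 had 24 and 25 UMIs of the fatty acid binding protein Fabp4, all of those in the endothelial-rich members, with 6 and 19 of Mgp and 4 and 7 of Vwf. They were not free of capillary genes either: member 20 had 4 UMIs of Gpihbp1, and member 21 had 1 each of Gpihbp1 and Plvap. Both had almost no mitochondrial RNA (0% and 0.161% of UMIs) and little of the nuclear transcript Malat1 (0.395% and 0.121%), against group medians of 1.62% and 2.54%. Lymphatic genes were not found as a set: Lyve1, which lung capillaries also use, was in 13 of 23 members, while Prox1 and Flt4 had 1 UMI each and Mmrn1, Pdpn, Ccl21a and Reln had 0.

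In the other 93 members, the sums of the subtype lists stood at different percents of the endothelial-rich level, and the difference was not tested. Summed over the subtype genes under 1 CPM in the comparison cells, general capillary genes stood at 147 CPM, 4.29% of the level in the endothelial-rich members, and aerocyte genes at 69.8 CPM, or 7.97%. Arterial genes stood at 110 CPM, or 17.8%, and venous genes at 354 CPM, or 27.4%. Vwf alone made up 100 of the 203 venous UMIs. Lymphatic genes stood at 10.5 CPM, or 36.5%, from only 6 UMIs against 2 in the endothelial-rich members. Vwf was in 33 of the 93, with 100 UMIs at 174.5 CPM (142 to 212), against 344.5 (221 to 512) in the endothelial-rich members. Mgp was in 29 of the 93 with 140 UMIs, Fabp4 in 21 with 69, and Cxcl12 in 13 with 15. Sema3c had 35 UMIs in 4 of the 93, of which 26 lay in member 29. By the same genes, 27 of the 93 had at least 2 venous genes and 8 at least 2 general capillary ones, against 7 and 19 of the 23. An alternative chosen after seeing the data left out the 12 members of 0.5% to 1%. The general capillary, aerocyte, arterial and venous sums were then 2.83, 6.18, 11.3 and 19.0% of the level in the endothelial-rich members. The limit of 1% acts on these genes too, so the shares describe the groups and are not a test.

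The ILC2 RNA of the members followed the same division. For 29 ILC2 genes, of which 27 had at least 20 CPM, 17 were at least 4-fold lower in the endothelial-rich members than in the comparison cells, none was higher and the median ratio was 0.192, where 5.28% of all genes were lower and the median over them was 1.32. In the other members none was past 4-fold, where 1.94% of all genes were higher and 0.139% lower, so the count is near the share over all genes. The median ratio there was 0.964, beside 0.985 over all genes. Gata3 had 86.1 CPM (31.6 to 187) in the endothelial-rich members, 778 (708 to 854) in the others and 773 (761 to 784) in the comparison cells. Il1rl1, the ST2 gene of the sort, had 115 (49.6 to 226), 710 (643 to 783) and 803 (791 to 814). Il7r, which encodes CD127, had 230 (131 to 373), 1146 (1060 to 1238) and 1371 (1356 to 1386). Icos had 0 UMIs in the endothelial-rich members against 592 and 582 CPM. Areg, which encodes the repair factor amphiregulin, had 86.1 (31.6 to 187), 1438 (1341 to 1539) and 892 (880 to 905), so in the other members it was 1.61-fold (1.50 to 1.73) the level of the comparison cells. Over all members the ratio was 1.45. It was 1.13 as a mean over cells, and 0.700 when each cell was thinned to 2000 UMIs before the rule, which also left 58 members in place of 116. With the members kept and their UMIs thinned, Areg was seen in 48.3% of the other members and in 40.9% of the comparison cells. Hes1 and Zbtb16 of the list were not lower, with 287 and 86.1 CPM against 111 and 73.5.

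Leukocyte genes gave the same order. Ptprc had 4 UMIs in 3 of the 23 endothelial-rich members, or 57.4 CPM (15.6 to 147), while 20 had none. It had 658 (593 to 728) in the others, of which 10 had none, and 886 (874 to 898) in the comparison cells, of which 8.88% had none. Of 12 pan-leukocyte genes, 7 of the 11 with at least 20 CPM were at least 4-fold lower in the endothelial-rich members (5.28% of all genes) and none in the others (0.139%). After thinning to 2000 UMIs, Gata3 was seen in 2 of 16 endothelial-rich members (12.5%, 1.55 to 38.3%), in 63 of 87 others (72.4%, 61.8 to 81.5%) and in 3142 of 4615 comparison cells (68.1%, 66.7 to 69.4%). Without thinning the shares for Gata3 were 17.4%, 88.2% and 83.5%. The 4 genes of the positive sort proteins had a median ratio of 0.860 in the other members. With thinning, Thy1 was seen in 26.4% of these (17.6 to 37.0%) and in 40.0% of the comparison cells (38.6 to 41.5%), and Ptprc in 66.7% and 76.5%. Il1rl1 went the other way, with 73.6% and 68.2%, and Il7r was near equal, with 88.5% and 88.1%. The 65 naïve cells with at least 3 NK or ILC1 genes (median 5243 UMIs) were read the same way, as another group of the same library. Their median ILC2 share was 0.660%, so they are not a background free of ILC2 RNA. Thinned to 2000 UMIs, Gata3 was in 10 of 64 of them (15.6%, 7.76 to 26.9%) and Il1rl1 in 4 (6.25%, 1.73 to 15.2%). The share for Il1rl1 in the endothelial-rich members was 3 of 16 (18.8%, 4.05 to 45.6%), so the intervals of both genes overlapped those of the NK or ILC1 group. With 16 cells these intervals are wide, and the overlap shows little. Il7r was seen in 3 of 16 endothelial-rich members (18.8%, 4.05 to 45.6%) and in 42 of 64 cells of the NK or ILC1 group (65.6%, 52.7 to 77.1%). Over the 29 ILC2 genes, the medians detected were 1.5 and 7. Rora was seen in 5 of 16 endothelial-rich members (31.2%) and in 50 of 64 cells of the NK or ILC1 group (78.1%).

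Of 15 immediate early and heat shock genes, 3 were at least 4-fold higher and 1 lower in the endothelial-rich members, beside 17.8% and 5.28% of all genes read. All 15 had over 8 CPM in the comparison cells, where 8.26% of genes were higher. The 3 higher ones were Hspa1a, Hspa1b and Jun. Hspa1a and Hspa1b, the inducible heat shock proteins 70, had 1363 (1103 to 1667) and 1636 CPM, against 185 and 295 in the other members and 121 and 222 in the comparison cells. Jun had 2526 (2167 to 2928), 899 and 603 CPM. Nr4a1 ran the other way, with 2 UMIs in the endothelial-rich members and 1112 and 838 CPM in the others. Of 10 antigen presentation genes, the class II genes H2-Aa and H2-Ab1 passed the filter only through the endothelial-rich members, each at 115 CPM against 6.81 and 6.90 in the comparison cells, while B2m, the class I light chain, had 1737, 1258 and 1438 CPM in the 3 groups. Proliferation genes were at 0 in the endothelial-rich members for 9 of 10, the exception being Stmn1 with 10 UMIs. Stmn1, the 1 gene of the list that passed the filter, stood at 6.10 times its level in the comparison cells. The 10 genes summed to 143.5 CPM, against only 73.5 in the comparison cells, so the genes at 0 show little.

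Across endothelial genes, what the other 93 members held varied with gene length. For 124 genes with at least 20 UMIs in the endothelial-rich members and a level in the comparison cells under 1% of theirs (rule genes left out), the level in the other members, less that in the comparison cells, was taken as a percent of the level in the endothelial-rich members. Its median was 11.6% for 25 genes under 10 kb in the GENCODE M21 annotation of GRCm38, 7.17% for 17 genes from 10 to 30 kb, 6.00% for 23 from 30 to 100 kb and 4.02% for 59 of 100 kb or more. The Spearman correlation with gene length was -0.60 across the 124 genes, and -0.66 across the 105 that were not in the score. With the length of a gene's exons alone it was -0.47 and -0.49, so exon length went the same way. The correlation with the level in the endothelial-rich members was -0.36. Genes share cells and are not independent, so these values carry no p. Short genes with high percents were Ifitm3 (27.7%), Mgp (27.2%), Id3 (23.3%) and Sox18 (21.7%), and long genes with low ones were Dach1 (1.25%), Scn7a (2.39%), Sema3c (2.41%) and Pde3a (2.76%). Vwf, a long gene, stood apart with 50.6%, while the short Gpihbp1 had 2.06%. The values of several genes, long and short, rested in part on members just under the limit of 1%. Members 28 and 29 held 33 of the 35 UMIs of Sema3c, and without them, an alternative chosen after seeing the data, its percent was 0.0951%. The medians of the 4 length classes were then 11.9, 5.49, 4.77 and 1.88%, and the correlation with gene length was -0.70. Without the 12 members of 0.5% to 1%, likewise chosen, the medians were 10.3, 4.30, 3.92 and 1.55% and the correlation was also -0.70. Malat1, which stays in the nucleus, made up a median of 2.54% of UMIs in the endothelial-rich members, 1.43% in the others and 1.79% in the comparison cells. A part of free RNA, of cell fragments or of doublets in this pattern was not tested.

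**Figure D5:**
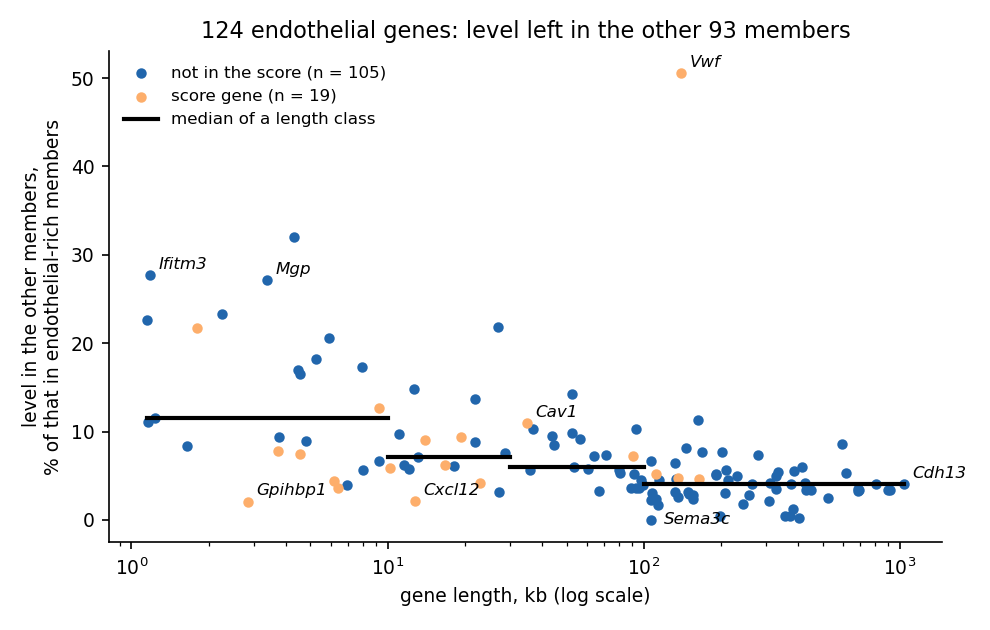
Level of 124 endothelial genes in the other 93 members, as a percent of that in the endothelial-rich members, against gene length in kb (log scale); black lines are medians of 4 length classes. The medians fall from 11.6% under 10 kb to 4.02% at 100 kb or more, with Vwf (50.6%) apart.

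Genes of further lung cells had few UMIs in the endothelial-rich members. All 13 myeloid, 10 T cell, 10 NK or ILC1, 10 fibroblast and 4 mesothelial genes had 0 UMIs. These lists summed to 90.4, 581, 58.7, 92.7 and 1.45 CPM in the comparison cells, so the 0 of the mesothelial genes shows little. Of 12 pericyte and smooth muscle genes, Rgs5 alone had UMIs (2, in 1 cell), and of 8 B cell genes Ebf1 alone, with 9 UMIs in 2 cells, a gene that mural cells also use. The 8 platelet genes had 9 UMIs, of which 5 were Pf4 in 1 cell. Their sum was 129 CPM, against 3.49 in the other members and 3.47 in the comparison cells. The 12 epithelial genes summed to 143.5 CPM, against 152 in the other members and 359 in the comparison cells, with Scgb1a1 the most abundant at 71.8, 61.1 and 286 CPM. Ly6c1 belongs to the antigens of the Ly-6G/C antibody of the lineage mix and had 746 CPM (557 to 979) in the endothelial-rich members, 68.0 in the others and 1.23 in the comparison cells. The other lineage genes were at 0 in the endothelial-rich members, apart from 1 UMI of Trbc2.

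The rule found few cells in the 4 libraries from tumour-bearing mice, and in only 1 of them did these resemble the endothelial-rich members. It was met by 7 of 1823 (0.384%, 0.155 to 0.790%) and 10 of 1601 (0.625%, 0.300 to 1.15%) ta-non-activated cells of weeks 2 and 3, and by 12 of 2895 (0.415%, 0.214 to 0.723%) and 3 of 3822 (0.0785%, 0.0162 to 0.229%) ta-activated cells. The week 2 ta-non-activated cells that met it had 3 or 4 of the genes and a median of 38067 UMIs, against a library median of 16090. All 15 ta-activated cells had exactly 3 genes, with medians of 75058.5 and 66032 UMIs against 13636 and 12296.5. None of these 22 cells had an endothelial share above 0.0239%. In the week 3 ta-non-activated library, 7 cells had at least 5 of the genes (0.437%, 0.176 to 0.899%), and 5 had an endothelial share over 1%, at 1.56, 1.70, 1.87, 2.54 and 2.97%. Their ILC2 shares were 0.0556, 0, 0.110, 0.0769 and 0.425%, all under the library median of 0.542%, and they had 5394, 529, 907, 1300 and 706 UMIs. After thinning to 2000 UMIs, the rule was met by 58 of 6147 naïve cells (0.944%, 0.717 to 1.22%), by 3 of 1495 week 3 ta-non-activated cells (0.201%, 0.0414 to 0.585%) and by none of the 1809, 2822 and 3714 cells of the other libraries. With 1 naïve library, the number of such barcodes cannot be told apart from how that library was sorted, prepared and processed. Its matrix header alone names Cell Ranger 6.0.0, and those of the other 4 libraries name 3.0.2. The naïve library shared 3 to 8 cell barcodes with each other library, and other pairs 1 to 3.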

How the data were processed

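Raw UMI counts per gene and barcode were deposited by the authors, without normalization. The authors made them with Cell Ranger, 6.0.0 in the header of the naïve matrix and 3.0.2 in the other 4, and the submitters' processing notes name 3.0.2, Seurat 3 and the build GRCm38. The annotation behind the counts is not given in the sources used here. Kept cells had at least 200 genes and under 5% mitochondrial counts, and the 27726 genes common to the matrices were used. The naïve matrix held 33522126 UMIs in 6953 barcodes. The members, gene lists and limits were chosen with earlier results of these data known. Levels are summed counts per 1000000 UMIs (CPM) with exact Poisson intervals, ratios have exact conditional binomial intervals and shares Clopper-Pearson intervals, at 95%. A group at 0 was set to 3 UMIs for ratios. Genes with a mean of both levels of at least 20 CPM were read for size, and 4-fold was called; the script was tested on simulated data. No test was run, since 1 naïve library allows none. Named genes were those of the marker lists and the 20 highest and 10 lowest ratios, and others were chosen after their values were seen (Ifitm3, Id3, Malat1). No doublet caller was run and doublets were not removed. Gene lengths came from GENCODE M21. Python 3.11.15, numpy 2.4.6, scipy 1.17.1, pandas 2.3.3 and matplotlib 3.10.9 were used. Alternatives changed the mitochondrial limit, the barcodes, the number and choice of rule genes, the depth, the comparison cells, the scale and the filter on low levels.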

Additional observations from a re-analysis of the deposited data

How the results depend on the processing

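No paired analysis was possible because the result comes from no test and the naïve group has 1 library. The values are those of 1 library of pooled mice, its depth (a median of 4517 UMIs per kept cell) limits genes of few UMIs, and whether doublets, free RNA or cell fragments made the mixed members was not tested. With 2 rule genes in place of 3, the number of members rose from 116 to 215 (3.37% of cells), the median pan-endothelial gene ratio went from 220.4 to 56.1, the genes at least 4-fold higher from 257 to 123 and lower from 6 to 1, and members with 2 or more general capillary genes from 75 to 117. With 4 rule genes the share was 1.41%. With each cell thinned to 2000 UMIs before the rule, there were 58 members (0.944%), a median ILC2 gene ratio of 0.718 in place of 0.862, 531 genes higher and 106 lower, and 28 members with general capillary and 12 in place of 24 with aerocyte genes. Genes at least 4-fold lower were 11 without Cd36 and Pecam1 in the rule and 12 without members of over 2 times the median UMIs. With a mean CPM of at least 5, 648 genes were higher and 52 lower; with at least 50, 104 were higher and 2 lower, and the median pan-endothelial gene ratio was 18.6. For the endothelial-rich members, alternatives chosen after seeing the data gave 35 with a limit of 0.5%, with a median ILC2 share of 0.211% and 189 genes at least 4-fold lower, and 13 with a limit of 2%. A changed rule, depth or limit changes which cells or genes enter; beyond that the cause was not tested. The other 71 values of these results stayed within 1.5 times or their counting intervals; among them the median pan-endothelial gene ratio reached 369 with thinning and 362 as a mean over cells. For genes of the rule, pan-endothelial and ILC2 lists, 64 ratios of all members to the comparison cells were also read under the alternatives. Of these 64 named gene levels, 56 moved beyond their counting interval under at least 1 alternative. Levels of single genes in the endothelial-rich or the other members were not put through these alternatives. The ratio crossed 1 for 12 of the 64, none of which was 4-fold as reported; with thinning, Areg went from 1.45 to 0.700 and Il5 from 1.09 to 0.433, and with 2 rule genes Rora went from 0.901 to 1.17.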
